A study of Drosophila melanogaster with 3 samples.

Results

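Binding of the tap protein was examined at 9 genes of tracheal development in Drosophila melanogaster embryos: trh, rib, salm, bnl, btl, verm, serp, uif and pyd. They were taken as a named list, chosen with earlier results of these data known. They are 9 of the 13945 protein-coding genes on the 6 chromosome arms that hold peaks. The embryos formed 1 group with 3 biological replicates. Whole embryos of both sexes, collected at 6 to 16 h, were used, from a transgenic line in which tap carries GFP at its C-terminus. Chromatin was immunoprecipitated with an antibody against GFP and sequenced, and the product is a set of peaks, or intervals of enriched sequence, in dm6 coordinates. What drives the fusion gene, and whether untagged tap was also present, is not given in the sources used here. The peaks come from whole embryos, so they do not tell which cells were bound.

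The trachea is the branched tubular network that carries air to the tissues of the fly. Its cells are set aside in segmental placodes by the transcription factor trachealess (trh), which acts with the widely expressed partner tango (tgo), and its branches grow out toward sources of the fibroblast growth factor branchless (bnl), read by the receptor breathless (btl). Later the length and width of the tubes are set by the matrix in the lumen, by the apical membrane and by cell junctions. The protein tap is a basic helix-loop-helix (bHLH) factor of the neurogenin family. Factors of this class bind E-boxes, of the form CANNTG, whereas the pair of trh and tgo is known to bind TACGTG.

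Each summit, the point in a peak given as its maximum, was credited to 1 protein-coding gene, that whose transcription start site (TSS) lay closest. Of the 4336 peaks that passed the authors' threshold on the irreproducible discovery rate (the thresholded peaks), 16 were assigned to the tracheal genes. These lay at 5 of the 9 genes (55.6%), against 18.9% of all protein-coding genes. The 8 peaks at pyd and 3 each at rib and bnl made up most of them, with 1 each at trh and salm. At btl, verm, serp and uif there was none. Among the 4336 strongest peaks of each replicate, 5, 6 and 6 of the 9 genes had a peak in replicates 1, 2 and 3 (mean 5.67 ± 0.577, SD, n = 3), against 19.2%, 19.5% and 19.0% of all genes. The sixth gene in replicates 2 and 3 was verm. The number of such peaks was 14, 15 and 17 (mean 15.3 ± 1.53, SD, n = 3). In replicate 3 salm was counted through a summit other than its thresholded one. That summit was 17782 bp downstream of the TSS, at rank 4148, while the thresholded peak ranked 4475 there. The members differ in how much genome lies nearest to their TSSs, from 6.51 kb at btl to 98.2 kb at pyd, and genes with longer stretches of this kind have a peak more often, as given further on. No test of chance was made for these counts, and the list was chosen with earlier results of these data known.

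The sequences about the strongest thresholded summits of trh, salm, bnl and pyd are shown, and they differ in GC and in E-boxes. That of rib is not shown. Each run below is 201 bases of dm6, plus strand, 5′ to 3′, from the RefSeq copy of the assembly, with the summit as the middle base. Capitals mark E-boxes. The windows were chr3L:377570-377770 for trh, chr2L:11420256-11420456 for salm, chr3R:19831086-19831286 for bnl and chr3R:8927823-8928023 for pyd.
trh: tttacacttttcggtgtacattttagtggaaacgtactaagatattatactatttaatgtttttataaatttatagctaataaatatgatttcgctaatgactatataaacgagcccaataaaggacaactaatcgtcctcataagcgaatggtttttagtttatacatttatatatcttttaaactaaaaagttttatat
salm: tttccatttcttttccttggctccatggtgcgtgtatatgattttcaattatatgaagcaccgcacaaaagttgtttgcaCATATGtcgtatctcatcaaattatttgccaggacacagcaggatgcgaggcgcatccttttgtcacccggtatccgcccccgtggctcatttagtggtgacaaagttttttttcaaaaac
bnl: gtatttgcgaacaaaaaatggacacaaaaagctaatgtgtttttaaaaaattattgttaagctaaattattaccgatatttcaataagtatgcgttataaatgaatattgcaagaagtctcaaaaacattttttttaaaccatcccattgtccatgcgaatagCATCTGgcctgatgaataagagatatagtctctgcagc
pyd: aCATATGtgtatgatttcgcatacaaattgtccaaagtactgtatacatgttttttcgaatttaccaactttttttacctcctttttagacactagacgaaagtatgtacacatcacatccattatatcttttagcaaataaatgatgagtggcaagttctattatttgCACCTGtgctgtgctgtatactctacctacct

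The trh window had no E-box and 24.4% GC, with a longest unbroken run of 16 A or T bases, and the bnl window had the same run length at 30.3% GC and 1 E-box. The salm window had 42.8% GC and an E-box (CATATG) whose first base was at position -20 from the summit. The pyd window had 33.3% GC, and its 2 E-boxes, CATATG and CACCTG, lay toward opposite ends. None of the 4 windows overlapped an annotated untranslated region.

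The map of summits along each gene shows where the peaks lay.

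**Figure D1:**
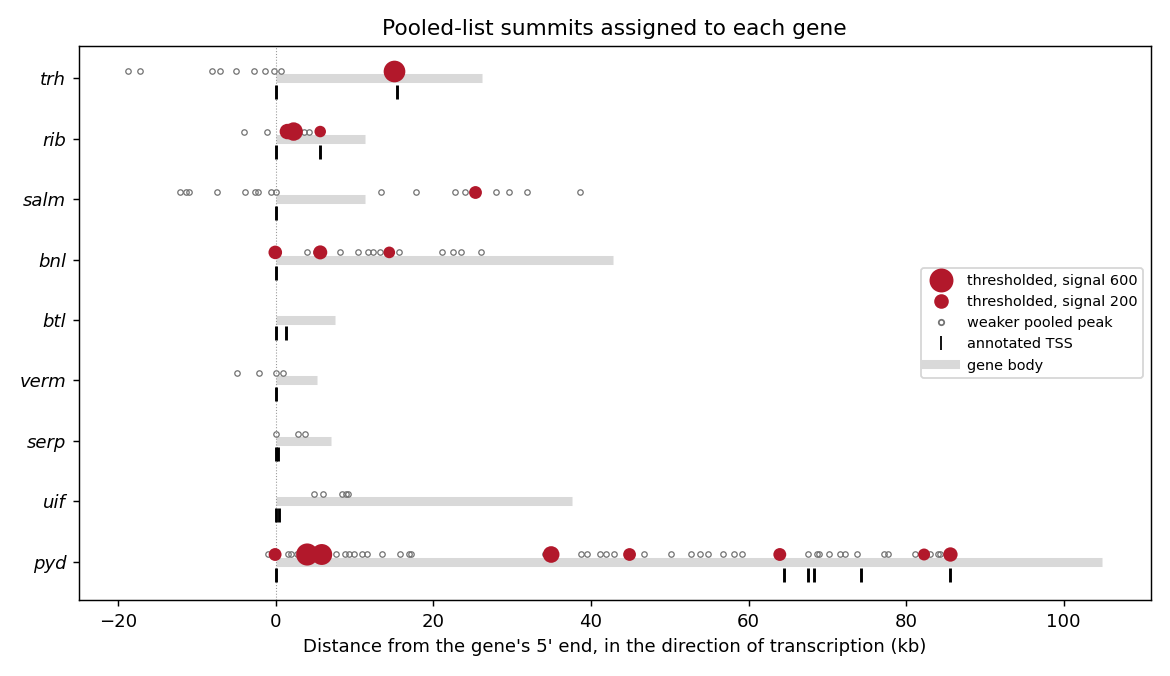
Pooled-list summits assigned to each of the 9 genes, by distance from the gene's 5' end in kb, in the direction of transcription. Filled circles are the 16 thresholded peaks, with area proportional to signal, and open circles are the 104 weaker ones. A reader should see that pyd carries 8 filled circles spread over 85.7 kb, that the single trh peak sits at the downstream TSS, and that btl has no summit.

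Among the transcription factors, trh had the strongest peak. It spanned 377516 to 377848 on 3L and had a signal of 576.5 and rank 560 of 4336, where rank 1 is the strongest. The gene (FBgn0262139, 3L from 366524 to 392633, minus strand) has TSSs at 2 positions, and the summit was 354 bp upstream of the downstream TSS, inside an intron of the longer transcripts. That TSS is used by 5 of the 7 annotated transcripts. The upstream TSS, at the 5' end of the gene, had no thresholded summit within 14963 bp. In the pooled list a weaker peak lay 192 bp upstream of it, at rank 14055. The strong peak ranked 384 in replicate 1, 441 in replicate 2 and 2541 in replicate 3, with signals of 270.2, 267.7 and 55.7. Replicate 3 stood apart, with a rank number 6.62 times that of replicate 1, although all 3 ranks were within the number of the thresholded peaks.

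The gene rib (FBgn0003254, 2R from 19270078 to 19281396, plus strand), which encodes a BTB-domain nuclear protein needed for tracheal branching, had 3 thresholded peaks in its 11319 bp. The strongest, at 2R from 19272214 to 19272415, was intronic, 2252 bp downstream of the TSS, with a signal of 416.7 and rank 992. It ranked 1123, 1146 and 673 in replicates 1, 2 and 3. The next, at 2R from 19271378 to 19271591, lay 797 bp away from it, with a signal of 292.1 and rank 1718. Its ranks were 1377 and 1089 in replicates 1 and 2, and the list of replicate 3 had no summit within 200 bp. By this 200 bp rule it was the only peak of the 16 not found in every replicate. Within 500 bp all 16 had a match in every replicate, and by overlapping intervals 15 had. A pooled rib peak below the threshold, 1665 bp downstream of the TSS at rank 14846, was matched in replicate 3 at rank 2835. The weakest of the 3 thresholded peaks, at 2R from 19275516 to 19275891, had a signal of 163.0 and rank 3978. It was 28 bp upstream of the internal TSS from which the other 2 transcripts begin. Here replicate 3 ranked it highest (7101, 5833 and 2742).

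The gene salm (FBgn0261648, 2L from 11434311 to 11445614, minus strand) encodes the zinc-finger factor spalt major, needed for the dorsal trunk, the main tube of the network. Its 1 thresholded peak, at 2L from 11420270 to 11420402, was intergenic, 25258 bp downstream of the TSS and 13955 bp beyond the 3' end of the gene. It had a signal of 202.6 and rank 2899, and ranked 2575, 3391 and 4475 in the replicates. The assignment to salm rests on the TSS being the nearest, since no gene holds the summit. Within 500 bp of the salm TSS the pooled list had a peak at rank 13067, 41 bp upstream, which replicate 3 alone matched (rank 13497).

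The ligand and the receptor of the FGF pathway differed in the lists. The ligand gene bnl (FBgn0014135, 3R from 19794073 to 19836817, minus strand, with 1 TSS position) had 3 thresholded peaks. The strongest, at 3R from 19831108 to 19831201, was intronic, 5631 bp downstream of the TSS, with a signal of 242.3, rank 2239, and replicate ranks of 4300, 2241 and 1526. Close in strength was the promoter peak at 3R from 19836706 to 19837081, 77 bp upstream of the TSS, with a signal of 226.6, rank 2458, and replicate ranks of 2690, 6079 and 1393. The last, at 3R from 19822237 to 19822612, lay in the intron 14392 bp downstream, with a signal of 167.1, rank 3850, and replicate ranks of 6042, 3950 and 3194. Replicate 3 ranked each of these highest. Each fell outside the 4336 strongest of at most 1 replicate.

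The receptor gene btl (FBgn0285896, 3L from 14075772 to 14083229, plus strand) was the only one of the 9 genes without a peak in the pooled list of 30000. The nearest pooled summit was 3977 bp from a btl TSS, and the nearest thresholded one was 70696 bp away. Replicate 1 had 3 peaks, the best of rank 26453 in an intron, 255 bp downstream of the TSS at 14077065. Replicate 2 had none, and replicate 3 had 2, the best of rank 20503 and 1782 bp downstream of the same TSS. Each of these lists holds 30000 peaks. In all, 8 of the 9 genes had a pooled peak of any strength, against 48.2% of all genes.

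The chitin deacetylase genes verm and serp, whose products modify the matrix of the lumen and limit tube length, and uif, which encodes a large apical transmembrane protein, had weak or uneven peaks. The best of verm (FBgn0261341, 3L from 19690033 to 19695260, minus strand) lay just outside the thresholded list. At 3L from 19694138 to 19694513, 934 bp downstream of the TSS and in an intron, it had a signal of 153.1 and pooled rank 4349, where the last thresholded peak had rank 4336 and a signal of 153.4. Its ranks were 8948, 3763 and 4131 in the replicates, so replicates 2 and 3 held it among their 4336 strongest and replicate 1 did not. A second peak, 46 bp downstream of the TSS, had pooled rank 7432 and replicate ranks of 4647 and 8288 in replicates 1 and 3, with no match in replicate 2.

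The neighbouring serp (FBgn0260653, 3L from 19700977 to 19708015, minus strand) had 3 pooled peaks, the best 25 bp upstream of its first TSS at rank 21490. That peak was found in all 3 replicates, at ranks 21411, 17007 and 8715. The best pooled peak of uif (FBgn0031879, 2L from 6972828 to 7010359, minus strand) was intronic, 4429 bp downstream of the nearer TSS, at rank 11437, and ranked 17481 and 9518 in replicates 1 and 2 with no match in replicate 3. Replicates 1 and 3 had a different best peak of uif, 50 and 56 bp downstream of the upstream TSS, at ranks 7047 and 6646, which had no counterpart in the pooled list. None of the 5 pooled peaks of uif was found in all replicates.

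The junction gene pyd (FBgn0262614, 3R from 8827068 to 8931896, minus strand), which encodes the fly ZO-1 protein polychaetoid, a scaffold of adherens junctions, had 8 thresholded peaks. Of the 2641 genes with any thresholded peak, 27 had as many or more, pyd included. The gene is also the longest of the 9 at 104829 bp, with 12 transcripts and TSSs at 6 positions. The strongest peak of all 9 genes was in an intron at 3R from 8927785 to 8927991, 3973 bp downstream of the upstream TSS, with a signal of 601.0 and rank 520. It was also the most even, with ranks of 514, 522 and 571 in the replicates (mean 536 ± 30.9, SD, n = 3) and signals of 235.7, 247.1 and 136.6. A second intronic peak, at 3R from 8925978 to 8926169, had its summit 1849 bp away, with a signal of 537.2, rank 639, and replicate ranks of 531, 945 and 668.

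Of the other 6 pyd peaks, 2 were at promoters. The one at 3R from 8846091 to 8846466 had its summit 10 bp downstream of an internal TSS, which 6 transcripts share, in a 5' UTR, with a signal of 253.2, rank 2102, and replicate ranks of 3421, 2316 and 1476. The one at 3R from 8931807 to 8932182, 99 bp upstream of the 5'-most TSS, had a signal of 203.3, rank 2884, and replicate ranks of 3916, 2200 and 2943. The remaining 4 were intronic, with signals of 175.9 to 339.8, and lay 502, 3335, 19571 and 29520 bp upstream of the nearest pyd TSS. The peak 502 bp upstream was the least even of the 16, at ranks of 2419, 2493 and 25631. Over 85.7 kb of the gene, then, the peaks ran from the first promoter to the most downstream one.

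The widest gap between neighbouring pooled summits of pyd was 17.1 kb, and 90.7% of it is annotated as copies of transposable elements. A wider stretch without a pooled summit, the 19.2 kb at the 3' end of the gene, holds none (0%). In the whole gene such copies cover 19.5% of the length, and held 0 of the 52 pooled summits and 0 of 42, 47 and 42 in replicates 1, 2 and 3. In uif 1 such copy covers 18.8% of the gene, and it held 0 of the 5 pooled summits there. The share of all summits that lie in such copies was not counted, so this is not shown to be particular to pyd. The sources used here do not say how reads of repeated sequence were treated, and the part of this in the gap was not tested.

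By a Euclidean distance of log10 ranks over the 3 replicates, the genes whose own strongest peak was most like that of pyd were P5CDh1 (ranks 547, 550 and 581), Cds (525, 534 and 512) and Svil (546, 541 and 658). Their pooled ranks were 543, 483 and 545. These are neighbours in strength over 3 samples only.

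The plot of ranks by replicate sets the 16 peaks side by side.

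**Figure D2:**
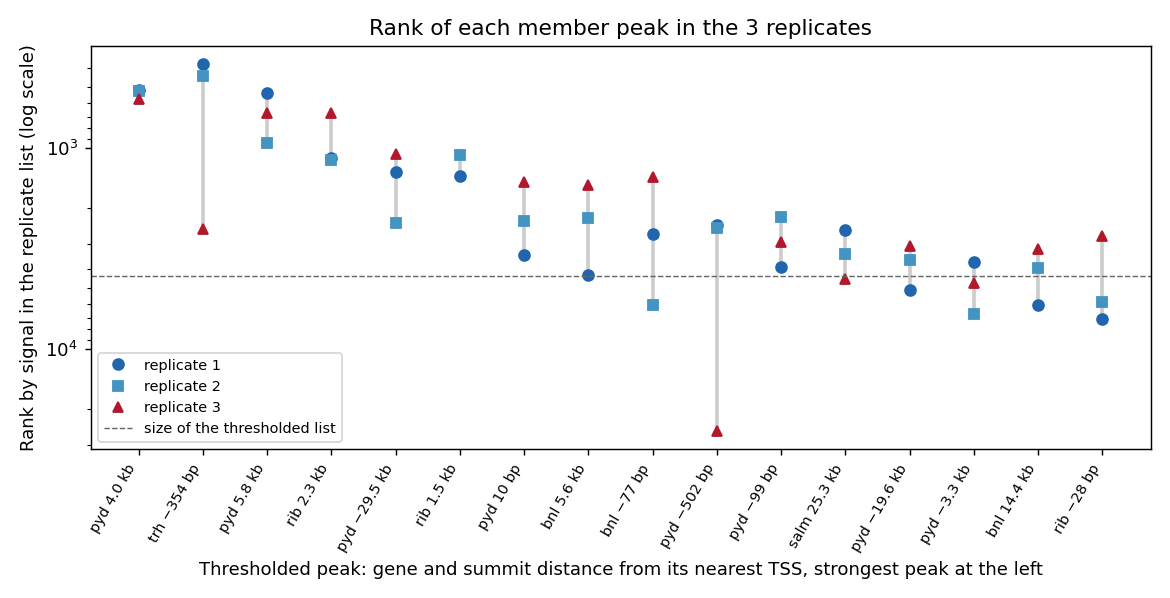
Rank of each of the 16 thresholded peaks in the list of each replicate, on a log axis with rank 1 at the top. Peaks are ordered from the strongest at the left and labelled by gene and by distance from the nearest TSS, negative when upstream. The dashed line is at rank 4336. Replicate 3 (triangles) sits far below the other replicates for the trh peak and for the pyd peak 502 bp upstream, and the rib peak 1455 bp downstream has no triangle.

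Of the 16 peaks, 15 had a summit within 200 bp in the full list of every replicate (all thresholded peaks, 89.9%), and 8 (50%) were among the 4336 strongest of all 3 replicates (all thresholded peaks, 48.3%). Spearman's rho of the ranks of the tracheal peaks was 0.72 for replicates 1 and 2 (16 peaks). For replicates 1 and 3 it was 0.51, and for 2 and 3 it was 0.58 (15 peaks each). Over all thresholded peaks it was 0.76, 0.54 and 0.52. Peaks share libraries and a control, so these are descriptions.

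Position relative to genes was mixed. Of the 16 summits, 5 (31.2%) were within 500 bp of an annotated TSS, where 41.2% of all thresholded summits were. These belonged to trh, rib, bnl and pyd (2). The other 11 were distal, 10 of them in introns and 1, near salm, intergenic, whereas of all distal thresholded summits 66.5% were in introns and 28.2% intergenic. At least 5000 bp from the nearest TSS lay 6 of the 16, or 37.5%, against 24.0% of all. As 8 of the 16 summits were at pyd, these shares weigh 1 gene heavily and the summits are not independent. Of the 19 TSS positions of the 9 genes, 5 had a thresholded summit within 500 bp, against 12.6% of all protein-coding TSS positions. A pooled summit was as near to 13 of the 19, against 38.0% of all.

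Genes with a longer stretch of nearest genome more often had a peak assigned, and the part of length itself was not tested. When genes were put into deciles by how much genome lies closest to their TSSs, pyd, salm, trh and bnl were in the longest, where 43.9% of genes had a peak, and all 4 had one. Of the remaining 5 genes 1, rib, had a peak, and 16.2% of all genes below the longest decile did. Both rib, with 14.9 kb, and uif, with 20.5 kb, were in the ninth decile (33.1% with a peak). Next came verm and serp in the eighth (26.0%) and btl in the seventh (20.5%). Per 10 kb of nearest genome the counts were 2.02 at rib, 1.05 at bnl, 0.815 at pyd, 0.242 at trh and 0.167 at salm, where the genome as a whole had 0.324. So pyd, with the most peaks, was less dense than rib and bnl, and trh and salm were below the genome average.

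**Figure D3:**
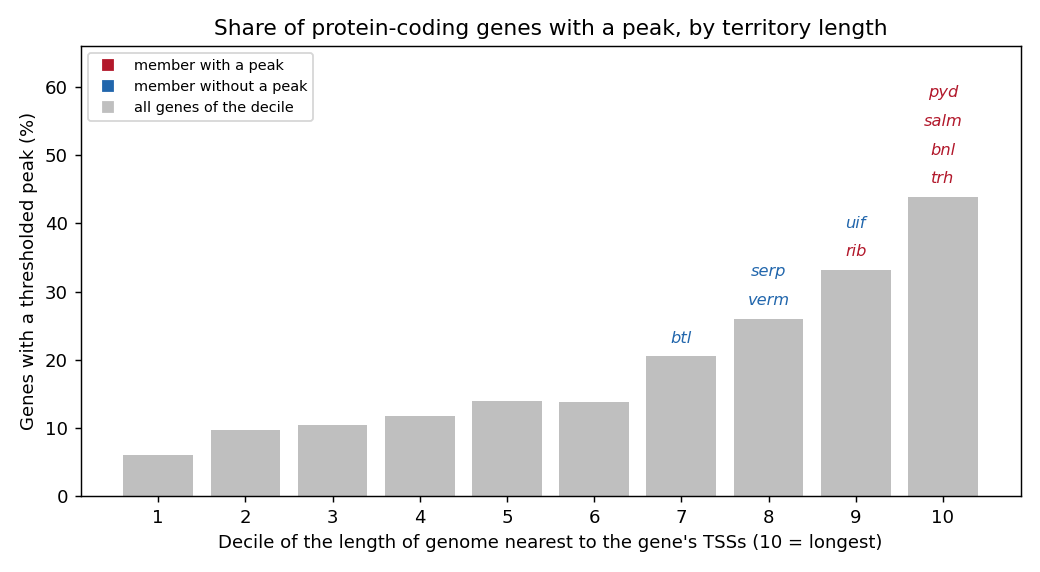
Percent of protein-coding genes with at least 1 thresholded peak (bars), by decile of the stretch of genome that lies closest to the gene's TSSs. Names stand above the decile each of the 9 genes belongs to, in red with a peak and blue without. The share was 43.9% in the longest decile and 6.10% in the shortest, and the longest holds 4 of the 5 genes with a peak.

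GC content was on average higher at the promoter peaks than at the distal ones of these genes, with overlapping ranges of 27% to 57% and 18% to 46%. The 100 bp about the 11 distal summits averaged 29.4% ± 8.05 GC (SD over peaks), and those about the 5 promoter-proximal summits 46.8% ± 11.9. Over all thresholded peaks the corresponding means were 31.9% (2550 peaks) and 33.2% (1786 peaks). By peak, the promoter summits of bnl (57%), pyd (53% and 45%) and rib (52%) were GC-rich, and that of trh (27%) was not. The distal summit of salm (46%) was above 1 of the pyd promoter summits. The lowest values were at the pyd peak 502 bp upstream (18%) and the rib peak 1455 bp downstream (22%). That pyd peak lay just outside the 500 bp limit and so counted as distal. With a limit of 1000 bp it joined the promoter-proximal summits, which were then 6. With a limit of 200 bp there were 4, without that of trh. The GC means depend on this limit. Against windows 500 bp to each side, GC was lower at 11 of the 16 summits and at 79.6% of all thresholded summits. The mean difference, summit minus flanks, was -5.31 percentage points over all 16 (SD 18.8) and -10.2 over all thresholded peaks. In the strongest peaks of the replicates this difference at the tracheal genes was -8.04, -5.23 and 0.412 (mean -4.29 ± 4.30, SD, n = 3), so it did not hold its sign in replicate 3.

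An E-box, searched as CANNTG, lay within 100 bp of 8 of the 16 summits (50%), against 59.8% of all thresholded summits. The form is its own reverse complement, so both strands were covered. These 8 peaks belonged to pyd (6), bnl and salm, and held 12 E-boxes. They were of 8 of the 10 possible kinds, counting a kind and its reverse complement together, and no kind was found at more than 2 of the 16 peaks. The kind CATATG was at 2 (pyd and salm), and at 8.35% of all thresholded summits. Of the peaks of trh and rib, 0 of 4 had an E-box in this window. The count depends on the window. Within 50 bp 3 of the 16 peaks had one, against 33.8% of all thresholded peaks, and within 200 bp 15 had, against 86.6%. TACGTG, searched on both strands, was within 100 bp of 0 of the 16 summits and of 3.94% of all thresholded summits. A count of 0 allows a share of up to 18.8% if the 16 peaks are taken as independent, though 8 of them are at pyd. So it does not tell the share at these genes from that of all peaks.

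The most uneven ranks in replicate 3 were at summits of low GC, but not every such summit was uneven. The pyd peak at 18% GC ranked 25631 there, and the trh peak at 27% ranked 2541. The rib peak at 22% had no replicate 3 summit within 200 bp, though it had one within 500 bp. The 3 summits of 52% or more had their best rank in replicate 3. In all, 8 of the 16 had their best rank there, and the others of these were the pyd peaks at 23% and 28%, the bnl peaks at 25% and 40% and the rib peak at 29%. Of the 8 tracheal summits under 30% GC, 4 had their best rank in replicate 3 and 4 their worst or none, where of all thresholded peaks under 30% the shares were 23.2% and 63.2%. Across the 15 matched peaks, Spearman's rho between GC and the log10 ratio of the rank in replicate 3 to the geometric mean rank in replicates 1 and 2 was -0.42 (Pearson's r -0.52). Over all 3898 thresholded peaks with 3 ranks it was -0.41 (Pearson's r -0.39). Of all thresholded peaks under 20% GC, 29.6% had no match in replicate 3, and the median rank number of the rest was 3.42 times that in the other replicates. Of those at 50% or more, 2.48% had no match and the median was 0.582 times. In replicates 1 and 2 the unmatched shares were between 0 and 1.63% in every GC class. The part of base composition in the uneven ranks was not tested.

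**Figure D4:**
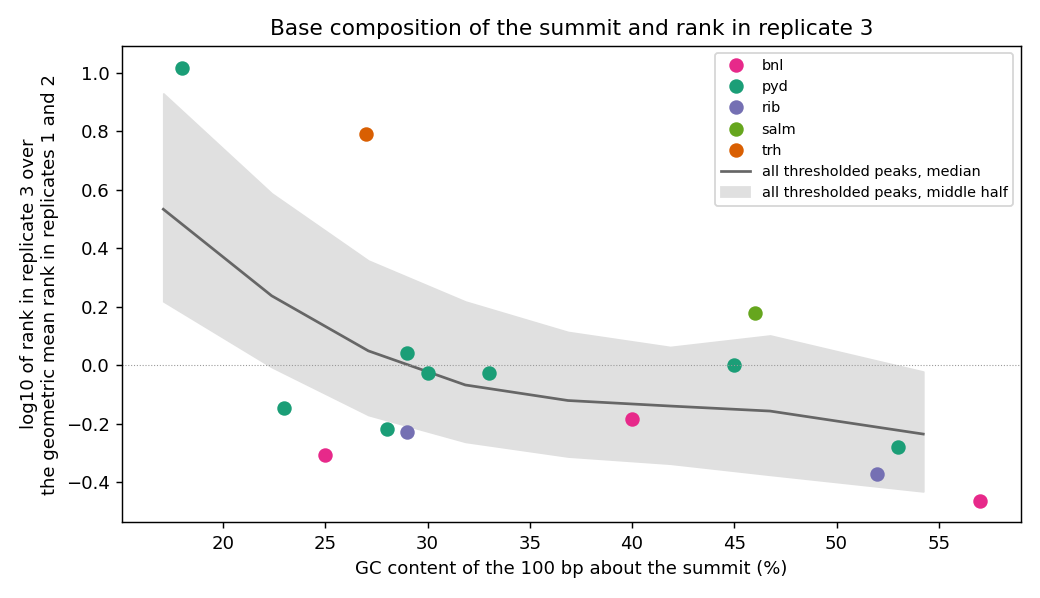
The log10 ratio of the rank in replicate 3 to the geometric mean rank in replicates 1 and 2, against GC content of the 100 bp about the summit in percent. Points are the 15 tracheal peaks matched in all replicates, coloured by gene, and the line and band are the median and the middle 50% of all thresholded peaks in 8 classes of GC, drawn at the mean GC of each class. Points above 0 rank lower in replicate 3, as do the pyd peak at 18% and the trh peak at 27%.

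A wider list of 50 other genes of tracheal development was counted in the same way, and 24 (48%) had a thresholded peak, against 18.9% of all genes. By role the counts were 10 of 12 transcription factors, 4 of 8 genes of FGF signalling, 4 of 5 genes that guide branches, 3 of 9 genes of the lumen and apical matrix, 2 of 12 septate junction genes, and 1 of 4 genes of adhesion and branch fusion. By the same deciles, 15 of the 17 in the longest had a peak (43.9% of all genes there), and 9 of the other 33 (16.2% of all genes below it). The counts by role were not split by decile, although the roles differ in nearest genome. It ran from 8.96 to 134 kb for the transcription factors and from 1.44 to 20.8 kb for the septate junction genes. The list was chosen with results of these data known, so its counts describe these genes only.

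Among those transcription factors the strongest peaks were at sima, the fly HIF-alpha gene of the response to low oxygen (signal 971.6, rank 188), grh, a factor of barrier epithelia (662.4, rank 433), hth, a homeodomain gene (618.2, rank 492, with 9 peaks) and pnt, an ETS factor downstream of FGF signalling (489.1, rank 761, with 10 peaks). The partner of trh, tgo, had 1 peak at rank 1818, at position -5118 from its TSS. In FGF signalling the feedback inhibitor sty had 5 peaks, the best at rank 562 (signal 576.0), and the adaptor stumps, which acts below btl, had 2, the best at position -357 from its TSS, at rank 623 (signal 546.3). Next were sgl and sfl, which act in the synthesis of heparan sulfate, at ranks 876 and 3754. The receptor btl thus had no thresholded peak, while its ligand, an adaptor and an inhibitor of the pathway did. Of the 8 other genes of FGF signalling, 4 had such a peak. Of all genes 18.9% had one, and of all genes in the decile of btl 20.5%, so most genes had none. The nearest genome was 6.51 kb at btl, against 28.7 kb at bnl, 29.6 kb at stumps and 44.7 kb at sty. The part of this length in the contrast was not tested.

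In the matrix group crb, an apical polarity gene, led at rank 1174, ahead of knk (3697) and mmy (4057), which act in chitin formation. Neither knk nor mmy was matched in replicate 3. The branch guidance genes with peaks were dpp (rank 828), sli (1257), robo2 (1494) and tkv (1966), the last unmatched in replicate 3. The septate junction genes were Gli (rank 1029) and Atpalpha (2998, with uneven replicate ranks of 13749, 2288 and 5751), and the adhesion gene was shg, which encodes E-cadherin (3129).

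Below the threshold, 104 further pooled peaks were assigned to 8 of the 9 genes, 46 of them to pyd, 18 to salm, 13 to bnl and 10 to trh. Of these, 23 (22.1%) were found in all 3 replicates, where 21.2% of all weaker pooled peaks were, and 13 (12.5%) were within 500 bp of a TSS, where 22.5% were. A replicate summit could match more than 1 pooled peak, so some of the 23 share a match with a stronger peak. For example, a pyd peak at rank 5382 and the thresholded one at rank 2102 had the same replicate 3 match (rank 1476). The best of the 104 were the verm peak at rank 4349, a pyd peak 11608 bp into the gene at rank 4500, and a trh peak 2776 bp upstream of the upstream TSS at rank 5119, which ranked 4750, 8057 and 9334 in the replicates. In bnl, 7 further pooled summits lay inside the gene but were nearest to the TSS of Acsx4, the best at rank 8150. Some of the weaker summits lay inside noncoding genes. These were lncRNA:CR46454 for salm, lncRNA:CR45378 (the peak at rank 14055) and lncRNA:CR43969 for trh, and tRNA:Arg-TCG-2-4, within pyd, for pyd.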

How the data were processed

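Chromatin immunoprecipitation and sequencing were done on 3 replicate embryo collections, and fragments of 200 to 800 bp were selected, per the labels' protocols. Each replicate list, per the deposited sample notes, was made from 1 replicate and 1 control alignment, another list from the pooled replicates, and the thresholded list from these. The sources used here name no aligner, peak caller, version or threshold. Each list holds per peak a signal value, deposited by the authors, and the −log10 of a q-value by the format of the deposited files. Signal scales differ between lists, so peaks were ranked by signal within a list, and signals are the authors' own values. The 4336 thresholded peaks were the 4336 strongest of the pooled list. Depth is unknown, and limits from a count of 0 cover counting error only.

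Genes and TSSs were from Ensembl release 115, without transposable elements, and sequence from the RefSeq copy of dm6. Summits were assigned to the nearest protein-coding TSS, and the assignment was tested on simulated positions. Distances count from the assigned TSS. A replicate matched a peak when its nearest summit lay within 200 bp. GC was taken in 100 bp at the summit and motifs within 100 bp to each side. Python 3.11.15, numpy 2.4.6 and pandas 2.3.3 were used. The design has 1 group and no contrast, so no p-values were computed, and replicate spread is given as SD.

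The 9 genes, the wider list and the rules were chosen with earlier results of these data known. Named were the 9 genes, up to 4 genes of each role with the strongest peaks, genes that hold a summit of a member, and 3 genes alike in rank to the strongest peak; tgo was also named, as the partner of trh. For the wider list, 1 older symbol (mega) was matched as pck. Alternatives were other assignments, peak sets, windows and match distances, and leaving out each replicate.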

Additional observations from a re-analysis of the deposited data

How the results depend on the processing

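Of the 67 alternative values, 53 kept within 1.5 times the count (or, for GC, 1 SD of the replicates). With the strongest 2168 thresholded peaks, 3 of the 9 genes (pyd, rib and trh) had a peak, with 7 peaks, 6 of them in all replicates, 2 promoter-proximal and 3 with an E-box. Then 15 other tracheal genes had one, and the GC difference was -12.8 points. When a summit had to lie within 5000 bp of its TSS, there were 10 peaks, 9 found in all replicates and 4 with an E-box, and 4 genes had one, without salm. Among the 2168 strongest of each replicate, 3 genes had a peak. The share of all genes was not counted under these settings, so the 18.9% of the full thresholded list does not apply to them. An E-box was within 50 bp of 3 summits and within 200 bp of 15, and TACGTG within 200 bp of 1. In these cases fewer peaks or other window widths were used by construction. For the thresholded list, leaving out a replicate meant keeping the peaks matched in the remaining replicates. That list was made from all 3, and peaks were not called again, so these counts of genes and peaks could not rise. They were 5 genes, 15 to 16 peaks and 22 to 24 other tracheal genes, with a GC difference of -5.31 to -3.3 points. Among the strongest peaks of the remaining replicates, a mean of 5.5 to 6 genes had a peak. No paired analysis was possible because there is 1 group. Absence of a peak is not detectable apart from low depth, which is unknown.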
